A study of Drosophila melanogaster with 24 samples.

Results

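The genes described here encode the proteins of the mitochondrial ribosome of Drosophila melanogaster. They were taken as every gene whose symbol in the platform's probe-to-gene table starts with mRpL, for the large subunit, or mRpS, for the small subunit, and the values of a gene printed as more than 1 feature were averaged. This gave 61 genes, 40 of the large and 21 of the small subunit, read by 63 features, of 9011 genes named by a single symbol on the array. The rule reads symbols and no measured value, and the set was picked with earlier results of these data known. All 61 passed the requirement of 4 values among the 6 arrays of each time, 54 had a value on all 24 arrays and none had fewer than 22. A further feature that carries the names mRpL47 and Rlb1 together was left out. RefSeq lists 73 fly symbols of this form.

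Mitochondria translate the few proteins encoded in their own genome, nearly all of them core subunits of the respiratory chain and of ATP synthase, on ribosomes of their own. The ribosomal RNAs come from the mitochondrial genome, whereas the proteins are encoded in the nucleus, made in the cytoplasm and imported. The large subunit joins amino acids and holds the tunnel through which the new chain leaves towards the inner membrane, and the small subunit reads the messenger RNA. Some of these proteins have bacterial counterparts with the same number, and others occur in mitochondria without one. Myc is a transcription factor known in the fly for driving cell growth and the expression of genes of ribosome production.

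Wing discs are the epithelial sacs of the larva from which the adult wing grows, and RNA of 2 kinds of disc was put together, in different dyes, on each of 24 arrays. The tested discs were tub>dmyc>Gal4, in which the ubiquitously active tubulin promoter drives fly Myc from a removable cassette, and the control discs were tub>cd2>Gal4, in which the cassette carries cd2. Both came from 3rd instar larvae raised at 25°C, and a heat shock of 15 min at 37°C was used to make clones that touch each other, so that a disc can mix cells with and without the cassette. There were 4 times, 0, 12, 24 and 48 h, and 6 arrays for each, with the dmyc RNA labelled in Cy5 for replicates 1 to 3 and in Cy3 for replicates 4 to 6. The labels do not say whether 0 h discs had received the heat shock, how many larvae were pooled, or whether the arrays of a time came from separate cultures, so the p-values measure the spread between these arrays. In whole discs, fewer cells of a type and less RNA per cell cannot be told apart.

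Values are log2 ratios, dmyc over cd2 as far as the sample titles name them in that order, so that a ratio above 0 is likely an excess in dmyc discs. A log base of 2 was assumed, and every fold given rests on it. The mean ratios of both dye orientations ran the same way, with correlations of 0.561 to 0.702 across features within a time. Taken as deviations from the mean over all times, they correlated at 0.505 to 0.84. The dmyc gene itself, dm, was not analysed here, so the overexpression is not checked. The spread of all features on an array was 0.18 to 0.291 (SD). Arrays of opposite dye matched in pairs within each time (r from 0.519 to 0.898), and the labels do not say whether such partners shared RNA extracts. Calls are therefore given from all 24 arrays and again with these partner pairs as a random block, which allows for a fitted correlation of 0.443 within a pair. A gene is called where its adjusted p in limma is under 0.05. All 8 wing disc markers examined that were on the table had values, among them nub, ap and vg, but a ratio does not show a level.

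At 0 h, mitochondrial ribosomal protein genes were mostly higher in dmyc discs, by small amounts. Of the 61 genes, 17 were called higher and 2 lower, and 50 had a ratio above 0. Their median log2 ratio was 0.11, against 0.00 over all 10661 features tested. Among all features, 3.84% were called higher and 8.24% lower, against 27.9% and 3.28% of the ribosomal protein genes. Under quantile normalization, which moved the balance over all features from 409 higher and 878 lower to 613 higher and 654 lower, 25 of the genes were called higher and 1 lower. With partner pairs as a block, 3 genes remained higher and 1 lower, beside 0.929% and 3.9% of all features. With partners averaged limma called none of the 61 genes, and 0 of all 10661 features, with 24 of the 61 under an unadjusted p of 0.05. Without replicate 3, 5 genes were called, beside 5.19% of all features in either direction, and without the partners 3 and 6, 2 were called, beside 1.93%.

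**Figure D1:**
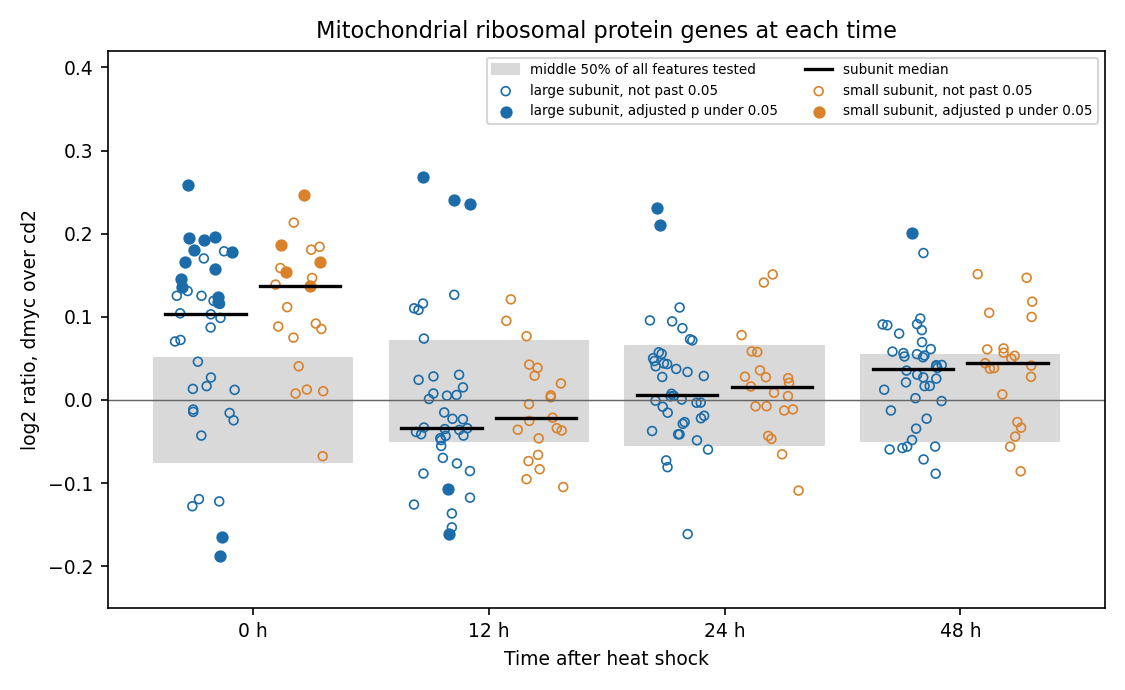
Each point is 1 of 61 mitochondrial ribosomal protein genes (blue, large subunit; orange, small subunit), plotted by its fitted log2 ratio of dmyc over cd2 (vertical axis) at each time after heat shock (horizontal axis). Filled points had an adjusted p under 0.05, black lines are subunit medians and grey bands hold the middle 50% of all features. Most points lie above the band at 0 h and within or near it at 12, 24 and 48 h.

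The gene with the highest 0 h ratio was mRpL17, whose bacterial counterpart lies beside the exit tunnel of the large subunit. Its log2 ratio on the 6 arrays ran from 0.17 over a median of 0.23 to 0.40. All 6 arrays lay above 0, and the fitted ratio was 0.26 ± 0.06 (SE), a 1.2-fold difference (adjusted p = 0.00516, with the block 0.0343). For mRpS6, whose bacterial counterpart pairs with S18 on the small subunit, the arrays ran from 0.16 over a median of 0.23 to 0.39. Again none was below 0, and the fitted ratio was 0.25 ± 0.05 (SE), or 1.19-fold (adjusted p = 0.00434, with the block 0.0242). mRpS18C, a homologue of that bacterial S18, ran from 0.04 over a median of 0.17 to 0.37 and was fitted at 0.19 ± 0.04 (SE; adjusted p = 0.00754, with the block 0.0297). These 3 were the genes called higher at 0 h under both fits. Partner pairs differed in size, however: the pair of replicates 1 and 4 gave 0.18, 0.17 and 0.06 for mRpL17, mRpS6 and mRpS18C, and the pair of replicates 3 and 6 gave 0.37, 0.34 and 0.34.

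Other genes were called higher at 0 h from all 24 arrays and not with the block. mRpL51, found in mitochondrial and not in bacterial ribosomes, ran from 0.07 over a median of 0.15 to 0.20 on the arrays and was fitted at 0.14 ± 0.03 (SE; adjusted p = 0.00731), which the block moved to 0.0676. mRpL52 and mRpL55, also without bacterial counterparts, had ratios of 0.19 and 0.12. mRpL30, whose bacterial counterpart is a small protein of the large subunit, had a ratio of 0.19. Their adjusted p with the block was 0.12, 0.13 and 0.108. The remaining 10 were mRpL9, mRpL20, mRpL23, mRpL37, mRpL38, mRpL49, mRpL50, mRpS2, mRpS16 and mRpS33, none of them called with the block. Over all 17 the fitted ratio ran from 0.12 to 0.26, and 13 of the genes were above 0 on every array.

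The 2 genes called lower at 0 h were both of the large subunit. mRpL18, whose bacterial counterpart binds the smallest ribosomal RNA of the large subunit, ran from -0.28 over a median of -0.19 to -0.07. No array was above 0. The fitted ratio was -0.19 ± 0.03 (SE), 0.878-fold (adjusted p = 0.0015, with the block 0.0173). Its partner pairs gave -0.24, -0.21 and -0.11. mRpL4, whose bacterial counterpart lines the exit tunnel, ran from -0.28 over a median of -0.23 to 0.00 and was fitted at -0.16 ± 0.05 (SE). Its adjusted p of 0.0395 became 0.135 with the block, and the pair of replicates 1 and 4 lay at 0.00, while the other two pairs lay at -0.23 and -0.26.

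The genes at the edge of the 0 h call differed little from those called. Next in order were mRpL40 with a ratio of 0.13 and an adjusted p of 0.0575, and mRpS18B with 0.18 and 0.0612. mRpS18A had the highest ratio of any gene that was not called, 0.21 with an adjusted p of 0.0688, and its arrays ran from -0.09 to 0.49. Among the 42 genes that were not called, 11 were above 0 on every array and the median ratio was 0.08.

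Both subunits shared the 0 h pattern. Of the 40 large-subunit genes, 12 were called higher and 2 lower, with a median ratio of 0.10 and 30 above 0. Of the 21 small-subunit genes, 5 were called higher and none lower, with a median ratio of 0.14 and 20 above 0; the exception was mRpS11 at -0.07, which was not called. On each array the mean of the large-subunit genes minus that of the small-subunit genes was taken. At 0 h it averaged -0.04 ± 0.02 (SD, n = 6 arrays), and the small subunit stood higher on all 6. No p was computed for this difference, since it is a score over a chosen list. At 12, 24 and 48 h it averaged 0.00 ± 0.02, 0.00 ± 0.03 and -0.01 ± 0.03 (SD, n = 6 each), above 0 on 4, 3 and 3 arrays. In mammals the products of the genes matching mRpS18A and mRpS30 lie in the large subunit despite their names. With both moved there, the 0 h difference was -0.03 ± 0.02 (SD) and below 0 on 5 of 6 arrays.

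**Figure D2:**
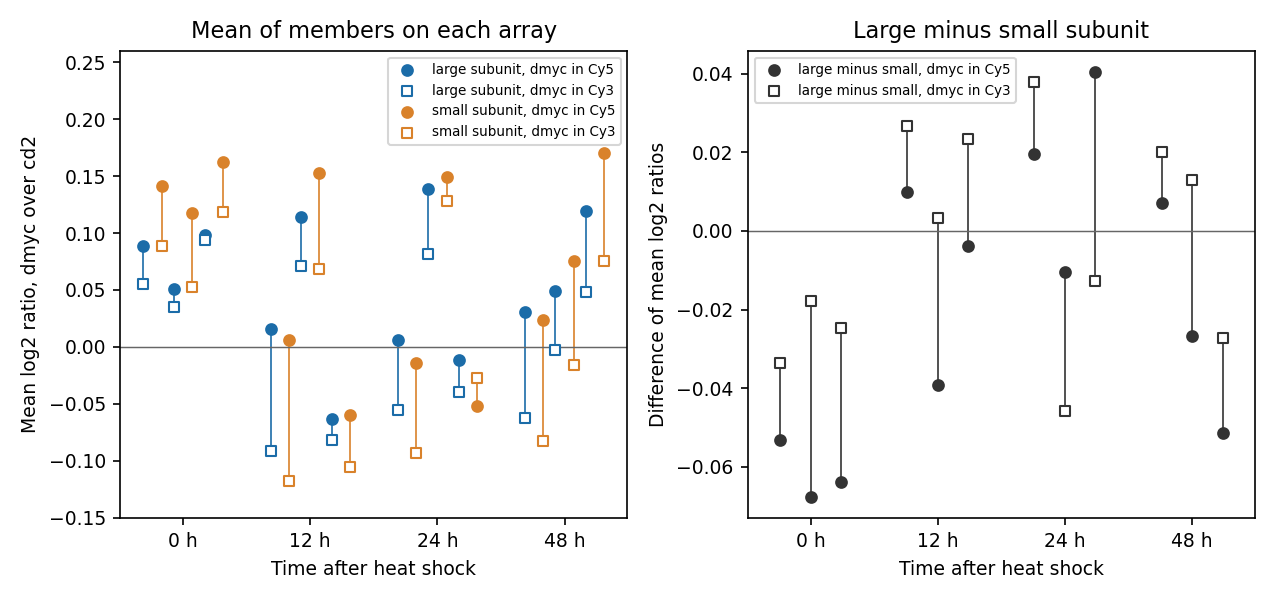
Left, the mean log2 ratio of dmyc over cd2 of the large-subunit (blue) and small-subunit genes (orange) on each of the 24 arrays, and right, the large minus the small mean, by time after heat shock. Filled circles are arrays with dmyc RNA in Cy5, open squares arrays with it in Cy3, and a line joins 2 partner arrays. At 0 h all arrays lie above 0 on the left and below 0 on the right, and at later times the pairs fall on both sides of 0.

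The genes were also split by number at 0 h, and the difference between the sets was not tested. Among the 34 genes whose number lies in the bacterial range, up to 36 for the large and 21 for the small subunit, 9 were called higher and 2 lower, with a median ratio of 0.13. Among the 27 genes numbered beyond it, 8 were called higher and none lower, with a median of 0.10. The 4 genes called with the block, 3 higher and 1 lower, all belonged to the first set.

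At 12 h few of the genes were called. In the 24-array fit 3 genes were called higher and 2 lower, 25 of 61 were above 0 and the median ratio was -0.03, while 5.32% of all features were called higher and 2.97% lower. With the block 1 gene was called higher and none lower, beside 0.947% and 0.394% of all features. All 5 calls of the 24-array fit were in the large subunit. None of the 21 small-subunit genes was called by limma, with 2 under an unadjusted p of 0.05. The calls over both subunits, 4.92% higher and 3.28% lower, were near the shares of all features, and a difference between the subunits was not tested.

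The gene called at 12 h under both fits was mRpL45, whose human counterpart sits at the tunnel exit and ties the ribosome to the inner membrane. Its log2 ratio ran from 0.10 over a median of 0.29 to 0.42, with all 6 arrays above 0. The fitted ratio was 0.27 ± 0.05 (SE), or 1.2-fold (adjusted p = 0.00365, with the block 0.0388). mRpL4 ran from 0.02 over a median of 0.25 to 0.45, again above 0 on all arrays, and was fitted at 0.24 ± 0.05 (SE; adjusted p = 0.00847, with the block 0.0509). mRpL44, a mitochondrial protein with an RNase III-like fold, ran from 0.09 over a median of 0.19 to 0.43 and was fitted at 0.24 ± 0.05 (SE; adjusted p = 0.00739, with the block 0.0509). On the other side stood mRpL13, whose bacterial counterpart binds early in the assembly of the large subunit, at -0.16 ± 0.04 (SE), and mRpL51 at -0.11 ± 0.03 (SE). Their adjusted p values were 0.0219 and 0.0371, and with the block 0.103 and 0.195. mRpL13 ran from -0.42 over a median of -0.16 to 0.07, and mRpL51 from -0.22 over -0.13 to 0.05, so that arrays of both genes fell on both sides of 0. Left out of the 12 h fit, the partners 2 and 5 gave 10 calls, beside 7.6% of all features, and the partners 3 and 6 gave 1, beside 2.76%.

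**Figure D3:**
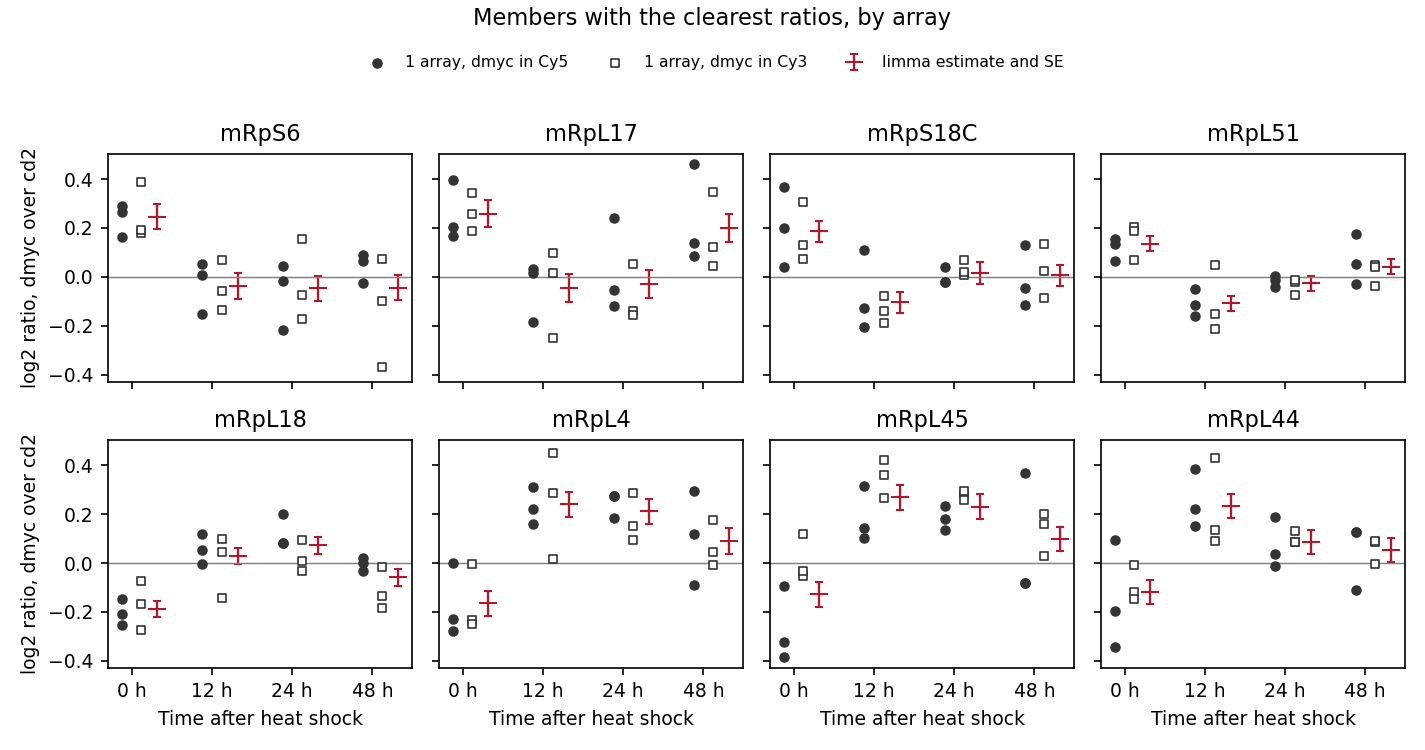
The log2 ratio of dmyc over cd2 (vertical axis) of 8 mitochondrial ribosomal protein genes on every array, by time after heat shock (horizontal axis). Filled circles are arrays with dmyc RNA in Cy5, open squares arrays with it in Cy3, and red crosses are the limma estimate ± SE. The upper row holds genes called higher at 0 h, the lower row genes whose ratio was below 0 at 0 h and above it at 12 and 24 h.

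At 24 h, 2 genes were called higher and none lower, 36 of 61 were above 0 and the median ratio was 0.01. The share called over all features was 3.75% higher and 4.39% lower, and with the block 0.619% and 0.994%, where no ribosomal protein gene was called and 5 were under an unadjusted p of 0.05. mRpL45 ran from 0.14 over a median of 0.25 to 0.29 and was fitted at 0.23 ± 0.05 (SE; adjusted p = 0.00873, with the block 0.0683). mRpL4 ran from 0.09 over a median of 0.23 to 0.29 and was fitted at 0.21 ± 0.05 (SE; adjusted p = 0.0163, with the block 0.079). All 6 arrays lay above 0 for both genes. Without the partners 1 and 5 neither was called, beside 1.3% of all features, and without the partners 2 and 6 the count was 4, beside 8.67%.

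At 48 h, mRpL17 alone was called, higher in dmyc discs. Its arrays ran from 0.05 over a median of 0.13 to 0.46 and all lay above 0. The fitted ratio was 0.20 ± 0.06 (SE), 1.15-fold (adjusted p = 0.0349, with the block 0.152). The call was lost when fat body markers, described below, entered as a covariate, under quantile normalization, and without replicate 1, 2 or 5. Of all features 3.1% were called higher and 3.19% lower, and with the block 0.929% and 0.985%. The block left no ribosomal protein gene called, with 3 under an unadjusted p of 0.05. The median ratio was 0.04, and 45 of 61 genes were above 0.

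Differences between times were tested directly, as the later ratio minus the 0 h ratio. All 3 contrasts subtract the same 0 h arrays, so a gene that recurs in them is not a separate finding each time. From 0 to 12 h the ratio fell for 21 of the 61 genes and rose for 5, with a median change of -0.13. The background was the reverse, with 8.75% of all features falling and 15.1% rising, although quantile normalization made these 1226 and 1229 features. With the block, 9 genes fell and 4 rose, beside 3.35% and 9.05% of all features, and with partners averaged 2 fell and 2 rose, where 90 of all features fell and 253 rose. Those 4 were mRpL20 and mRpL51, which fell, and mRpL4 and mRpL45, which rose. Without the 0 h partners 3 and 6 the count over both directions was 12, beside 11.8% of all features. Without the 12 h partners 3 and 6 it was 10, beside 12.8%.

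Falling genes came from both subunits, 14 of 40 large and 7 of 21 small. The 6 of lowest p were mRpL51, by 0.24 on the log2 scale, mRpS18C, mRpL13, mRpL9, mRpL20 and mRpL38. mRpS18C fell by 0.29 ± 0.06 (SE; adjusted p = 0.00196, with the block 0.0087). mRpL38, a protein of the central protuberance in mammals, fell by 0.33 ± 0.08 (SE), and mRpL9, whose bacterial counterpart reaches out from the large subunit, fell by 0.33 ± 0.08 (SE). Their adjusted p values were 0.00554 and 0.00398, and with the block 0.026 and 0.0187. mRpL20, which in bacteria binds RNA early in assembly, fell by 0.30 ± 0.07 (SE; adjusted p = 0.00508, with the block 0.057). The other 15 falling genes were mRpL17, mRpL23, mRpL30, mRpL37, mRpL40, mRpL43, mRpL50, mRpL52, mRpL55, mRpS2, mRpS6, mRpS16, mRpS17, mRpS18A and mRpS33.

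The 5 genes that rose were all of the large subunit. They were 8.2% of the 61 genes, fewer than the 15.1% of all features that rose, and a difference between the subunits was not tested. mRpL4 gained 0.41 ± 0.07 and mRpL45 gained 0.40 ± 0.07 (SE; adjusted p = 0.000643 for both, with the block 0.00497 and 0.00733). mRpL44 gained 0.35 ± 0.07 (SE; adjusted p = 0.00116, with the block 0.00926). mRpL18 gained 0.22 ± 0.05 (SE), which took it back to a ratio of 0.03 at 12 h. mRpL28, whose bacterial counterpart is a small protein of the large subunit, gained 0.23 ± 0.07 (SE), and its adjusted p of 0.0182 became 0.0977 with the block. Each of the 5 had a fitted ratio below 0 at 0 h, where only mRpL18 and mRpL4 were called.

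From 0 to 24 h the ratio fell for 8 genes and rose for 5, with a median change of -0.11, beside 8.08% of all features falling and 12.2% rising. With the block 2 fell and 3 rose, beside 2.47% and 6.16% of all features. The same 5 large-subunit genes rose, among them mRpL4 by 0.38 ± 0.07, mRpL45 by 0.36 ± 0.07 and mRpL18 by 0.26 ± 0.05 (SE), which were the 3 called with the block. The calls of mRpL28 and mRpL44 were each lost without 0 h replicate 2, 3 or 5. mRpL38 fell by 0.36 ± 0.08 and mRpS6 fell by 0.29 ± 0.07 (SE), with adjusted p of 0.00464 and 0.00858, and with the block 0.0239 and 0.0398. The other 6 falling genes were mRpL13, mRpL17, mRpL37, mRpL40, mRpL51 and mRpS18B, a further S18 homologue, which fell by 0.29 ± 0.09 (SE; adjusted p = 0.0245, with the block 0.109). The count was 4 without the 0 h partners 3 and 6, beside 6.95% of all features, and 21 without the 24 h partners 2 and 6, beside 21.6%.

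From 0 to 48 h 2 genes fell and 1 rose, beside 2.55% and 3.78% of all features. mRpS6 fell by 0.29 ± 0.07, mRpL55 fell by 0.17 ± 0.05 and mRpL4 rose by 0.25 ± 0.07 (SE), with adjusted p of 0.0259, 0.0366 and 0.0402. With the block none was called, 10 were under an unadjusted p of 0.05, and the shares of all features were 0.0375% falling and 0.0938% rising. The count ranged from 0 to 10 as single arrays or pairs were left out, beside 0.385% to 15.9% of all features.

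Any change with time, tested by a moderated F test over the 3 contrasts, was called for 16 of the 61 genes, or 26.2%, beside 19.7% of all features. Of these, 13 were large-subunit and 3 small-subunit genes. With the block the call held for mRpL4, mRpL18 and mRpL45, beside 6.97% of all features. The fit called 33 genes at no time and in no contrast, 20 of the large and 13 of the small subunit. The matching share of all features was not counted, so 33 of 61 cannot be set against it. These 33 genes include mRpL12, the stalk protein that in bacteria recruits translation factors, with a ratio of 0.10 at 0 h and 0.05 at 48 h. Also among them is mRpS29, a GTP-binding protein known in mammals as DAP3, whose ratios ran from 0.01 at 0 h to 0.08 at 24 h. The rest were mRpL1, mRpL2, mRpL3, mRpL10, mRpL11, mRpL16, mRpL19, mRpL21, mRpL22, mRpL24, mRpL32, mRpL33, mRpL35, mRpL39, mRpL41, mRpL42, mRpL46, mRpL48, mRpL54, mRpS7, mRpS9, mRpS10, mRpS11, mRpS22, mRpS25, mRpS26, mRpS28, mRpS30, mRpS31, mRpS34 and mRpS35.

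Across the 61 genes, 39 had their highest fitted ratio at 0 h and 27 their lowest at 12 h, whereas 10 had their lowest at 0 h. Over the 24 arrays each gene was set against the mean of the others, and the correlation was positive for 55 genes, with a median of 0.54, as a description of arrays that also share their partners' signal. Highest was mRpL3 at 0.86. The 6 genes with a negative correlation were mRpL44 at -0.45, mRpL45 at -0.36, mRpS11 at -0.34, mRpL4 at -0.33, mRpL28 at -0.21 and mRpL18 at -0.03. They are the 5 genes that rose from 0 to 12 h together with mRpS11. The mean over the members fell on the same arrays, from 0.09 at 0 h to -0.01 at 12 h, so this overlap is partly built in.

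**Figure D4:**
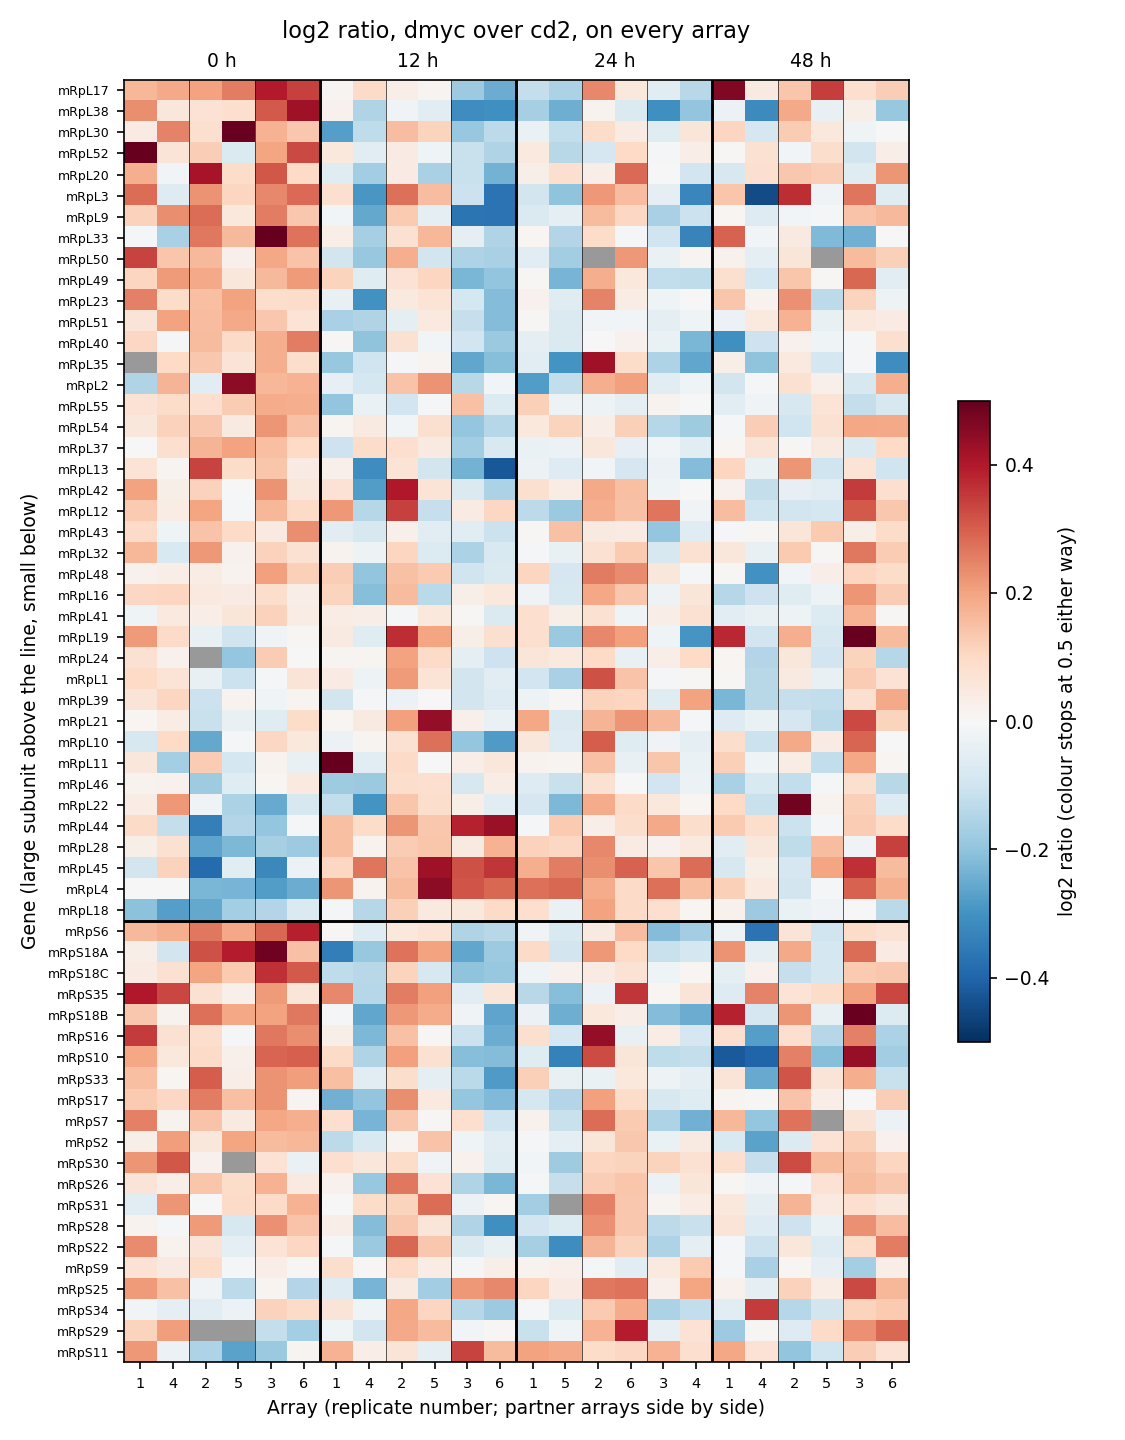
The log2 ratio of dmyc over cd2 of all 61 mitochondrial ribosomal protein genes (rows; large subunit above the line, small below, each ordered by the 0 h ratio) on all 24 arrays (columns, with partner arrays side by side). Red is higher in dmyc discs, blue lower, grey a missing value, and the colour stops at 0.5 either way. Columns of a pair resemble each other, the 2 and 5 columns at 12 h and the 2 and 6 columns at 24 h are mostly red, and mRpL4 and mRpL45 are clearly blue in the 0 h columns 2 and 3, range from blue to pale red in the other 0 h columns, and are above 0 in every column at 12 and 24 h.

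Within a time, partner pairs differed in where the genes lay as a whole. At 0 h the mean over the 61 genes was 0.09, 0.06 and 0.11 in the 3 pairs, with 88.5%, 73.3% and 80.3% of the genes above 0. At 12 h the pair of replicates 2 and 5 gave 0.10 with 86.9% above 0, while the pairs 1 and 4 and 3 and 6 gave -0.04 and -0.08, with 32.8% and 23% above 0. At 24 h the pair of replicates 2 and 6 gave 0.12 with 91.8% above 0, and the other two gave -0.03 each. At 48 h the pairs gave -0.02, 0.03 and 0.10. The large- and small-subunit means had the same sign in all 12 pairs. The same held between the ribosomal protein genes of mitochondria and those of the cytoplasm in 11 of 12 pairs, and between mitochondrial ribosomal and oxidative phosphorylation genes in 10 of 12.

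Genes that work beside the mitochondrial ribosome were taken from fixed lists. bonsai, a small-subunit protein with another kind of symbol, had ratios of 0.16, 0.05, -0.01 and 0.06 at 0, 12, 24 and 48 h and was not called, and tko was not analysed here. Of 5 mitochondrial translation factors none was called at 0 h, and 1 at 12 h, mEFTu1, an elongation factor that brings tRNA to the ribosome, at 0.46 ± 0.08 (SE; adjusted p = 0.00289, with the block 0.0105). Of 10 mitochondrial tRNA synthetases, which load tRNAs with amino acids, 1 was called lower at 0 h, PheRS-m at -0.20 ± 0.05 (SE; adjusted p = 0.0081, with the block 0.0615), and the median ratio was -0.05. PheRS-m was called higher at 12 h, with a ratio of 0.19 (adjusted p = 0.0173, with the block 0.109).

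From a list for mitochondrial transcription, ribosomal RNA and ribosome assembly, 6 genes were measured: TFAM, PolrMT, mTTF, mTerf3, mTerf5 and bsf. Of these 6, 1 was called higher at 0 h, bsf (with the block 0.0508), and 2 lower, with a list median of -0.08. PolrMT, the mitochondrial RNA polymerase, had -0.19 ± 0.04 at 0 h and 0.16 ± 0.04 at 12 h (SE; adjusted p = 0.00209 and 0.00961, with the block 0.0176 and 0.0619). TFAM, which packs and helps transcribe mitochondrial DNA, had -0.20 at 0 h and 0.23 at 12 h (adjusted p = 0.0456 and 0.0335, with the block 0.117 and 0.104). Both rose from 0 to 12 h, also with the block, at adjusted p of 0.00181 and 0.00887. At 12 h 3 of the 6 were called higher and none lower, and with the block none was called.

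Among 18 genes of protein import and folding in mitochondria, 5 were called higher at 0 h and 2 lower, and with the block 4 and 1. Of all features at 0 h, 3.84% were called higher and 8.24% lower, and with the block 0.929% and 3.9%. Tom7, a small subunit of the outer-membrane import channel, had 0.35 ± 0.06 (SE; adjusted p = 0.000669, with the block 0.00491). At 12 h 2 were called higher and 3 lower. The one called there with the block was Roe1, a co-chaperone of protein import, at -0.23 ± 0.05 (SE; adjusted p = 0.00779, with the block 0.0469). The chaperone Hsp60A had -0.20 at 0 h and 0.25 at 12 h (adjusted p = 0.0403 and 0.0182, with the block 0.117 and 0.0768). Of 55 oxidative phosphorylation genes, 10 were called higher and 3 lower at 0 h, and with the block 7 and 2, with a median ratio of 0.10. From 0 to 12 h 14 of the 55 fell and 8 rose, beside 8.75% and 15.1% of all features. With the block 10 fell and 5 rose, beside 3.35% and 9.05%. COX5B, a subunit of cytochrome c oxidase, was at 0.42 ± 0.07 (SE) at 0 h (adjusted p = 0.00047). Of 36 cytoplasmic ribosomal protein genes on the table, 7 were called higher and 1 lower at 0 h, and with the block 4 and 1, with a median of 0.06. Higher at 12, 24 and 48 h were 1, 4 and 3, or 2.78%, 11.1% and 8.33%, beside 5.32%, 3.75% and 3.1% of all features. With the block 1, 1 and 2 were higher at those times. They were RpL3 at 12 h, RpS19b at 24 h, and RpL7-like and RpL24-like at 48 h. The list was taken by symbol, and so it also holds genes that are only named as like a ribosomal protein. In this list RpS21 had 0.36 ± 0.08 and RpL3 had -0.47 ± 0.11 at 0 h (SE; adjusted p = 0.00414 and 0.00764). RpL3 had 0.50 ± 0.11 (SE) at 12 h (adjusted p = 0.00909).

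Mean ratios of markers of other tissues differed between the times, though not every marker was called. The mean of 3 measured trachea markers, of 4 listed, ran from -0.40 to -0.11 on the 0 h arrays and from 0.21 to 0.44 on the 12 h arrays. verm had -0.50 and 0.50 and serp -0.23 and 0.28 at 0 and 12 h, whereas btl had 0.00 and 0.06 (adjusted p = 0.996 and 0.366). Of the 3, 2 were called lower at 0 h and 2 higher at 12 h, beside 8.24% and 5.32% of all features. With the block it was 1 at each time, beside 3.9% and 0.947%. Of 9 hemocyte (blood cell) markers 5 were measured, and these had a mean of 0.04 to 0.31 on the 0 h arrays and were below 0 on all 6 arrays at 12 h. The mean of 4 measured myoblast (muscle precursor) markers, of 6 listed, was below 0 on all 6 arrays at 0 h, from -0.32 to -0.02, and none of the 4 was called there. The 3 of 7 fat body markers measured had a mean of 0.49 to 2.17 at 48 h, above 0 on all 6 arrays. Of the 3, 1 was called higher at 48 h, and none with the block. This mean also differed widely between arrays at the earlier times. It ran from -1.22 to 1.16 at 0 h, from -0.47 to 1.16 at 12 h and from -0.735 to 1.68 at 24 h. Of the 8 wing disc markers measured, of 10 listed, 1 was called higher and 3 lower at 0 h, beside 3.84% and 8.24% of all features. At 12 h and at 24 h 1 was called higher and 1 lower. Their mean ran from -0.23 to 0.04 on the 0 h arrays and from -0.15 to 0.19 on the 12 h arrays. Among them nub, a gene of the wing pouch, was lower at 0 h with -0.26 and higher at 12 h with 0.29 (adjusted p = 0.000835 and 0.000463). The marker called lower at 12 h was at -0.33, and vg was higher at 0 h with 0.29 (adjusted p = 0.0193, with the block 0.0824). Apart from the fat body covariate, the part of these tissues and disc regions in the ratios of the ribosomal protein genes was not tested.

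Ribosomal protein genes of mitochondria are short, with a median genomic span of 910 bp in RefSeq, against 2461 bp over the 8464 named genes with a span. Among the 61 genes the ratio ran against span at 0 h and with it at 12 h (Spearman's rho across genes -0.37 and 0.41), where over all named genes rho was -0.19 and 0.06. At 24 and 48 h rho was 0.15 and 0.12. Genes are not independent points here, since they share arrays and amplification, and the part of length in the 0 h ratios was not tested.

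For 2 genes a second feature gave a check of the measurement. The features of mRpL3 averaged 0.16 and 0.20 at 0 h, and those of mRpS16 averaged 0.14 and 0.19. At later times some parted in sign: those of mRpL3 were at -0.09 and 0.01 at 12 h and at 0.01 and -0.10 at 24 h, and those of mRpS16 at 0.02 and -0.08 at 48 h. A dye effect was called for 6 of the 61 genes, mRpL13 and mRpS16 among them, and for 11% of all features, and each time held 3 arrays of either orientation.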

How the data were processed

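RNA of dmyc and cd2 wing discs was amplified in 2 rounds and labelled with Cy5 or Cy3, per the labels' protocols. The authors deposited 1 ratio per feature and array, taken here as log2. That they are log ratios was read from the values, which centre on 0 (array medians from -0.01 to 0.008) and run from -7.19 to 5.68. The base is not stated, and base 2 was assumed. The sources used here name no scanner, background correction, normalization or filter. Without the signal behind a ratio, precision can be judged only from the spread between arrays and, for 2 genes, between features.

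Of 12359 features, 169 at positions of a print block where no feature named a gene were taken for controls and left out. Genes were named from the platform annotation (10289 features naming 1 gene, 56 several, 1845 none), and 9896 of these features matched RefSeq, among them those of all 61 members. After centring each array's median at 0, the features of a gene were averaged, and 4 or more values a time were required, which left 10661 features with 1.58% of values missing.

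The ratios were fitted in limma 3.58.1 (R 4.3.3; lmFit, eBayes) with 1 coefficient per time and 1 for dye over all 24 arrays. Each time was tested against 0, each later time against 0 h, and all times together by F test, two-sided, with Benjamini-Hochberg adjustment over all features of a contrast. Partner arrays were paired within a time by the assignment of highest summed correlation, and entered as a random block with duplicateCorrelation. Replicate numbers did not pair arrays across times (mean correlation 0.055 over 36 pairs of arrays, 15 of them over 0.1). On simulated data for the 12 h comparison over 10661 features, the fit recovered 51% of genes changed by 0.2 and 92% of genes changed by 0.5 on the log2 scale, with 9 false among 152 calls. The simulated arrays were drawn independently of each other, without the correlation within partner pairs seen in the data. These rates therefore check the code and do not give the recovery or the false calls of the 24-array fit on the real arrays.

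The members and gene lists were chosen with earlier results of these data known, so no test over a list was made. Members were named with values where they had the 6 lowest p values of a direction among those called in a comparison, where they were called at several times, or where they were called lower at 0 h. At most 3 members of lowest p a time were taken from other lists. The few further members given with values (mRpL3, mRpL12, mRpL40, mRpS11, mRpS16, mRpS18A, mRpS29) were chosen after their values were seen. Alternatives are given at the end.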

Additional observations from a re-analysis of the deposited data

Results flagged for a closer look

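The ratio of a named gene differed between a later time and 0 h, by the contrast in limma, in 30 cases. From 0 to 12 h the change was 0.41 for mRpL4, 0.40 for mRpL45, 0.35 for mRpL44, 0.23 for mRpL28 and 0.22 for mRpL18. In the same interval it was -0.33 for mRpL38 and for mRpL9, -0.31 for mRpL17, -0.30 for mRpL20, -0.29 for mRpS18C, -0.28 for mRpS6 and mRpL13, -0.27 for mRpL30, -0.24 for mRpL51, -0.23 for mRpL52 and -0.17 for mRpL55. From 0 to 24 h it was 0.38 for mRpL4, 0.36 for mRpL45, 0.26 for mRpL18, 0.22 for mRpL28 and 0.21 for mRpL44. Over those hours it was -0.36 for mRpL38, -0.29 for mRpS6, mRpS18B and mRpL17, -0.19 for mRpL13 and -0.16 for mRpL51. From 0 to 48 h it was 0.25 for mRpL4, -0.29 for mRpS6 and -0.17 for mRpL55. These are the genes named by lowest p, so their sizes are a description. Within a time, no array stood apart from the other 5 by Dixon's criterion in any of 28 groups of values examined, which covered the member mean, the large minus small difference and single genes.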

How the results depend on the processing

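From all 24 arrays, 19 mitochondrial ribosomal protein genes were called at 0 h, 5 at 12 h, 2 at 24 h, 1 at 48 h, 26 from 0 to 12 h, 13 from 0 to 24 h, 3 from 0 to 48 h and 16 for any change with time. With partner pairs as a random block these became 4, 1, 0, 0, 13, 5, 0 and 3. Beside them stood 4.83%, 1.34%, 1.61%, 1.91%, 12.4%, 8.63%, 0.131% and 6.97% of all features. With partners averaged, which leaves 12 values, the counts became 0 at each time, 4 from 0 to 12 h, and 0 for the other contrasts and the F test. Of all features, this setting called 0 at 0, 12 and 24 h, 0.544% at 48 h, 3.22% from 0 to 12 h and 0 in the other contrasts. Under an unadjusted p of 0.05 were 24, 7, 2 and 1 of the genes at 0, 12, 24 and 48 h, and 16 and 9 from 0 to 24 h and from 0 to 48 h. Fitting the compared arrays alone, and so fewer samples, gave 3 at 0 h and 0 at 12 h, at 48 h and from 0 to 48 h, with 38, 9, 5 and 15 genes under an unadjusted p of 0.05. The shares called over all features there were 4.63%, 0.497%, 1.24% and 2.34%. Array weights gave 34 at 0 h (29 higher, 5 lower, beside 1214 higher and 1896 lower of all features, 29.2%), 23 from 0 to 24 h (31% of all features), 9 from 0 to 48 h (16.8%) and 28 in the F test. The 48 h call became 0 with the fat body covariate, with quantile normalization and with the replicate block, each with 5 genes under an unadjusted p of 0.05. At 48 h these settings called 1.13%, 6.05% and 6.09% of all features. With replicate numbers as a block in place of the dye coefficient (the replicate block), 20 genes were called at 0 h, beside 11.3% of all features. The numbers did not pair the arrays. Leaving out single arrays or partner pairs gave 2 to 23 at 0 h, 1 to 10 at 12 h, 0 to 4 at 24 h, 0 to 2 at 48 h, 10 to 33 from 0 to 12 h, 4 to 21 from 0 to 24 h, 0 to 10 from 0 to 48 h and 6 to 22 in the F test. The share of all features moved too, from 1.93% to 16.9% at 0 h, 2.76% to 10.1% at 12 h, 1.3% to 9.97% at 24 h and 2.2% to 7.67% at 48 h. For the contrasts it ran from 11.8% to 28.4% from 0 to 12 h, 6.95% to 25.1% from 0 to 24 h and 0.385% to 15.9% from 0 to 48 h. The arrays that moved a count by over 1.5 times were, at 0 h, replicates 2 (12 without it), 3 (5), 5 (11) and 6 (8), and at 12 h replicates 3, 4 and 6 (3 each). At 24 h they were replicates 1 and 5 (1 each), and at 48 h replicates 1, 2 and 5 (0 each). In the same order, the shares of all features were 7.45%, 5.19%, 8.02% and 6.29% at 0 h and 3.63%, 7.04% and 3.28% at 12 h. The shares were 3.63% and 3.01% at 24 h, and 5.1%, 3.02% and 3.56% at 48 h. The change from 0 to 24 h gave 8 without 0 h replicate 2, 5 or 6 or 24 h replicate 3, beside 14.8%, 15.2%, 14.1% and 14.8% of all features. From 0 to 48 h it gave 8 without 0 h replicate 1, 5 without 4, 1 without 5, and 0 without 2, 3 or 6. The shares of all features were 11.3%, 8.65%, 3.04%, 2.52%, 1.88% and 1.86%. The change from 0 to 48 h also gave 1 without 48 h replicate 1, beside 5.29%, and 0 without 48 h replicate 4, beside 3.9%. The F test gave 10 without 12 h replicate 6. For the F test, the shares of all features with array weights or with arrays left out are not given here. Leaving out the centring or the dye coefficient, scaling the arrays, testing complete genes alone, dropping the minimum number of values, robust eBayes and unaveraged features kept every count they gave within 1.5 times. The large minus small difference moved by less than its SD under every setting run, including mRpS18A and mRpS30 with the large subunit, a setting chosen after seeing the data, and no named gene changed direction in any comparison where it was called. The calls of mRpL4, mRpL45 and mRpL51 from 0 to 12 h held under every setting and left-out array run. The causes of these differences were not tested. The signal behind each ratio is unknown, so no limit of detection can be given.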
